A study of Mus musculus with 48 samples.

Results

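A set of genes that mark intercalated cells of the kidney collecting duct, Foxi1, Slc4a1, Slc26a4, Slc4a9, Atp6v1b1, Atp6v0d2, Atp6v1g3 and Atp6v1c2, were followed through cultured kidney slices. They were named by symbol and matched to the table by Ensembl identifier, which found 8 of 8 among 55487 gene rows. Slices from male mice of 2 inbred strains, C57BL/6J and DBA/2J, were kept ex vivo and profiled by bulk RNA-seq. The 48 libraries form 16 groups of 3, labelled as biological replicates: for each strain, untreated control slices at 6 h and 24 h, slices given tunicamycin (an inhibitor of N-linked glycosylation) at 6 h and 24 h, slices given cyclosporin A (a calcineurin inhibitor) at 6 h and 24 h, slices under normoxia, and slices under normoxia-hyperoxia. The last pair carry 24 h in their titles, and the labels call normoxia a model of ischemia and normoxia-hyperoxia a model of reperfusion. All groups share male sex, kidney tissue and ex vivo culture, and none carries a named mutation. Ages, drug doses and the oxygen level of the control slices are not given in the labels, which also do not say whether replicates are separate mice or whether slices of different conditions came from the same mouse. P-values therefore measure the spread between these libraries. The titles place the controls with the drugs and the oxygen groups apart, so a comparison of an oxygen group with a control group crosses that line, and any other difference between those sets of slices cannot be told apart from oxygen.

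On GRCm38 with GENCODE M21 annotation, Foxi1 lies on the minus strand at chr11:34204338-34208089, Slc4a1 on the minus strand at chr11:102348824-102366203 and Slc26a4 on the minus strand at chr12:31519827-31559969. Slc4a9 lies on the plus strand at chr18:36528147-36556273. Of the pump genes, Atp6v1b1 lies on the plus strand at chr6:83742990-83758855, Atp6v0d2 on the minus strand at chr4:19876841-19922605, Atp6v1g3 on the plus strand at chr1:138273738-138289462 and Atp6v1c2 on the minus strand at chr12:17284721-17329359. Counts cover whole genes.

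Intercalated cells are the acid-base cells of the connecting tubule and collecting duct. Type A cells secrete acid through a V-type proton pump at the urine side and return bicarbonate to the blood, whereas type B cells secrete bicarbonate. Foxi1 is the forkhead transcription factor needed for their identity. Slc4a1 encodes the chloride-bicarbonate exchanger AE1 of type A cells, which is also band 3 of red cells. Slc26a4 encodes pendrin and Slc4a9 encodes AE4, transporters of type B cells. Atp6v1b1, Atp6v0d2, Atp6v1g3 and Atp6v1c2 encode proton pump subunits B1, d2, G3 and C2, each with a widely expressed paralog.

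The members rose and fell together across conditions, so the RefSeq promoters (GRCm38.p6, 250 bases before to 50 after the start) of 3 of them are shown: that of the regulator Foxi1 itself, and those of Slc26a4 and Atp6v1b1, which depend on Foxi1 in the kidney. The table held promoters for 5 of the 8 members, the others being Atp6v1g3 and Atp6v1c2. They were searched on both strands for the forkhead core TGTTTA, whose reverse complement is TAAACA, with capitals marking a match. Sequences are given 5′ to 3′ on the strand of the gene, at chr11:34208040-34208339 (minus strand), chr12:31559935-31560234 (minus strand) and chr6:83742767-83743066 (plus strand) in this order.
Foxi1: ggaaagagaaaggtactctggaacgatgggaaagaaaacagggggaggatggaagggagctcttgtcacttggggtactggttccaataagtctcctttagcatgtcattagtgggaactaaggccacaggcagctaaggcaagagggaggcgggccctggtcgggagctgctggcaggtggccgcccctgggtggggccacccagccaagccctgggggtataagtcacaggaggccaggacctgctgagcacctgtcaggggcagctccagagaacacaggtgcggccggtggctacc
Slc26a4: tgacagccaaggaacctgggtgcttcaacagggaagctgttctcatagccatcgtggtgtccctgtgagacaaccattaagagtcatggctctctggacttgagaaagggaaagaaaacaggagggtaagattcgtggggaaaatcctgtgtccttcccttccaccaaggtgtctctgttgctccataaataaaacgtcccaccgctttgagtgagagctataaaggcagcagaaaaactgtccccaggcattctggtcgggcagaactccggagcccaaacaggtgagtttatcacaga
Atp6v1b1: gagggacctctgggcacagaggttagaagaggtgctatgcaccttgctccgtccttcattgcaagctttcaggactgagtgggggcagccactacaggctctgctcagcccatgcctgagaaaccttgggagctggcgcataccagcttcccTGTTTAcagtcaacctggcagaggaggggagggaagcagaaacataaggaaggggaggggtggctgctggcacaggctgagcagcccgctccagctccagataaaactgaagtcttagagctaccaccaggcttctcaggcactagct
Atp6v1b1 held 1 match, beginning 98 bases before the start (position -98), and the other 4 promoters held none. Among 32851 promoters of this length 13.4% held the motif. A match is only an occurrence of these letters.

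Total counts per library ranged from 5.62 M to 25.1 M with a median of 19.6 M (M, mega). The lowest total belonged to DBA/2J normoxia-hyperoxia replicate 2, and the next lowest was 12.4 M. Mitochondrial genes took 3.11% to 25.6% of the counts. The members had 64 to 8336 counts in each library, so none was at the limit of detection, and the coefficient of variation of their CPM (counts scaled to the library total) within a group had a median of 15.4%. No pair of libraries held identical counts.

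Every member had its highest group mean in C57BL/6J slices under normoxia-hyperoxia and its lowest at 24 h in control or drug-treated slices. The span between the lowest and highest group mean was 26-fold for Slc26a4, 21.7-fold for Slc4a1 and 13.9-fold for Slc4a9, the transporters. It was 9.38-fold for Foxi1. The pump subunits spanned less: 7.15-fold for Atp6v1c2, 5.23-fold for Atp6v1g3, 5.02-fold for Atp6v1b1 and 4.76-fold for Atp6v0d2. The plot of members by library shows the 24 h controls and 24 h drug groups low in every panel.

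**Figure D1:**
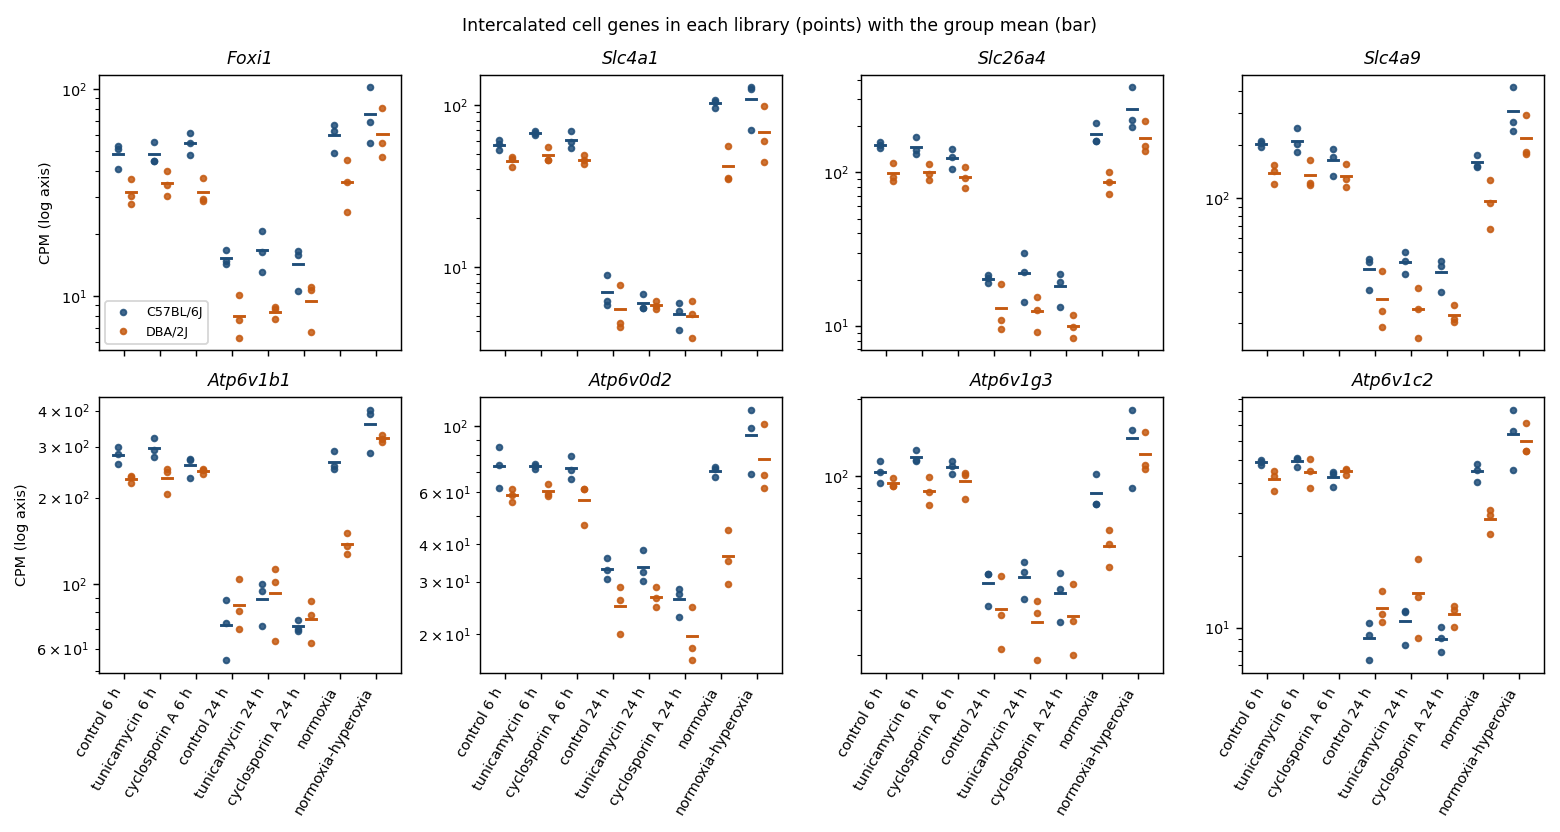
CPM of each member (log axis) in the 8 conditions for C57BL/6J (blue) and DBA/2J (orange), with a point for each of 3 libraries and a bar at the group mean. In both strains every 24 h control library of each member lies under every 6 h control library, and the normoxia and normoxia-hyperoxia libraries lie above the 24 h controls.

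Per length, as RPKM (CPM divided by the exon length in kilobases), pump subunits B1 and G3 led in most groups and AE1 came last in most. Atp6v1b1 had the highest level among the members in 12 of 16 groups, Atp6v1g3 in 3 and Slc26a4 in 1. In C57BL/6J 6 h controls Atp6v1b1 stood at 64.1 ± 4.3 RPKM (SD, n = 3), Atp6v1g3 at 54.9 ± 5.4 RPKM and Slc26a4 at 48.7 ± 2.0 RPKM, and the ranges of neighbours in this order overlapped. Next came Slc4a9 at 31.6 ± 1.2 RPKM, below Slc26a4 without overlap, then Atp6v0d2, Atp6v1c2 and Foxi1 at 27.1, 22.6 and 20.5 RPKM, each overlapping its neighbour. Slc4a1 was lowest at 11.6 ± 0.84 RPKM, under all libraries of Foxi1, and it was lowest in 15 of the 16 groups. The exception was C57BL/6J under normoxia, where Slc4a1 at 21 ± 1.3 RPKM and Atp6v1c2 at 20.7 ± 1.8 RPKM overlapped. In C57BL/6J 24 h controls the order differed: Atp6v1g3 (20.1 ± 3.2 RPKM) and Atp6v1b1 (16.5 ± 3.8 RPKM) overlapped at the top, Slc26a4, Foxi1 and Slc4a9 overlapped at 6.52, 6.48 and 6.27 RPKM, and Slc4a1 stood at 1.43 ± 0.35 RPKM.

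The comparison of 24 h with 6 h control slices asks what time in culture does. All 8 members fell, by 2.65-fold for Atp6v0d2 up to 9.68-fold for Slc4a1 averaged over strains (edgeR quasi-likelihood test, Benjamini-Hochberg adjusted p from 1.2e-10 to 1.3e-07). Of 16962 genes tested, 37.4% were called lower and 34.7% higher. The groups did not overlap for 8 of 8 members in both strains, against 20.6% of all genes in this direction. The median log2 fold change of the members was -2.19, beside -0.02 over all genes tested. In bulk slices, fewer intercalated cells and less RNA of these genes per cell cannot be told apart.

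Foxi1 read 40.9, 52.8 and 51.2 CPM in the 3 C57BL/6J libraries at 6 h against 14.8, 14.3 and 16.7 CPM at 24 h. The DBA/2J libraries read 30.4, 27.7 and 36.8 CPM at 6 h against 6.30, 7.61 and 10.1 CPM at 24 h. The highest 24 h library lay under the lowest 6 h library in each strain, and Foxi1 fell by 2.04 on the log2 scale (SE 0.12, edgeR adjusted p = 1.5e-09). Slc4a1, the type A exchanger, went from 57.2, 52.7 and 60.9 CPM to 6.12, 5.84 and 8.96 CPM in C57BL/6J. In DBA/2J it went from 47.9, 41.4 and 46.6 CPM to 4.47, 4.26 and 7.71 CPM. It fell by 3.27 on the log2 scale (SE 0.14, edgeR adjusted p = 1.9e-10), more than any other member by point estimate. Slc26a4, the type B exchanger pendrin, went from 145, 152 and 157 CPM to 18.9, 20.4 and 21.5 CPM in C57BL/6J. In DBA/2J it went from 88.0, 94.0 and 116 CPM to 10.8, 9.54 and 18.7 CPM. The third DBA/2J library was the highest at both times, and Slc26a4 fell by 3.14 on the log2 scale (SE 0.14, edgeR adjusted p = 1.1e-09).

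Slc4a9, the type B transporter AE4, fell by 2.56 on the log2 scale (SE 0.16). Its C57BL/6J libraries read 209, 194 and 204 CPM at 6 h against 30.8, 43.8 and 45.8 CPM at 24 h. Its DBA/2J libraries read 120.2, 142 and 154 CPM against 19.1, 23.5 and 39.4 CPM, without overlap between times. The pump subunits fell by 2.34 for Atp6v1c2 (SE 0.10), 1.92 for Atp6v1b1 (SE 0.12), 1.76 for Atp6v1g3 (SE 0.14) and 1.41 for Atp6v0d2 (SE 0.10). Atp6v1b1, mutated in distal renal tubular acidosis, had C57BL/6J means of 281 ± 19 CPM at 6 h and 72.1 ± 17 CPM at 24 h (SD, n = 3). Its DBA/2J means were 233 ± 6.8 and 85.2 ± 18 CPM. Atp6v1c2 went from 49.1 ± 1.1 CPM to 9.03 ± 1.6 CPM in C57BL/6J, while DBA/2J slices had 41.9 ± 4.1 and then 12 ± 2.0 CPM. The smaller fall of Atp6v0d2 left 33.2 ± 2.6 of 73.6 ± 11 CPM in C57BL/6J. In DBA/2J 24.9 ± 4.5 of 58.6 ± 2.8 CPM remained. No member had an interaction of strain with time (0 of 8 at the adjusted threshold, edgeR, where 0.69% of all genes had one in either direction). DESeq2 called 1, and edgeR without the filter on low counts called 2.

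The comparison of normoxia with 24 h controls asks how the labelled ischemia model differs at the same nominal time. All 8 members were higher under normoxia, where 42.4% of 17375 genes were called higher. The rise ran from 2.13-fold for Atp6v0d2 to 13.1-fold for Slc4a1 (edgeR adjusted p from 1.7e-11 to 1.4e-05), and groups did not overlap for 8 of 8 members in both strains, against 26% of all genes in this direction. The members' median log2 fold change was 2.12, beside 0.05 over all genes. Under normoxia-hyperoxia against the same 24 h controls all 8 members were again higher, by 3.33-fold for Atp6v0d2 up to 16-fold for Slc4a1 (edgeR adjusted p from 6.7e-09 to 2.4e-06), with 34.1% of 17256 genes called higher. Here too 8 of 8 members did not overlap in both strains, against 17.8% of all genes, and the median was 2.77. Both comparisons use the same 24 h control libraries, as does the comparison with 6 h, so their values are given side by side only.

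By role, Foxi1 under normoxia read 62.5, 49.1 and 67.0 CPM for the C57BL/6J libraries, and DBA/2J gave 25.4, 35.3 and 45.5 CPM. Normoxia-hyperoxia gave 69.0, 54.6 and 102 CPM for C57BL/6J, with DBA/2J at 46.8, 54.6 and 80.7 CPM. Every one of these libraries lay above all 24 h controls of its strain. The log2 fold change of Foxi1 over 24 h controls was 2.33 (SE 0.15) under normoxia and 2.79 (SE 0.19) under normoxia-hyperoxia. Slc4a1 read 95.6, 105 and 108 CPM under normoxia in C57BL/6J but 35.3, 35 and 55.6 CPM in DBA/2J. Normoxia-hyperoxia gave 129, 70.6 and 125 CPM for C57BL/6J, with DBA/2J at 60.3, 44.5 and 99.1 CPM. The strains were apart under normoxia and overlapped under normoxia-hyperoxia. The log2 fold changes of Slc4a1 were 3.71 (SE 0.17) and 4.00 (SE 0.26), and those of Slc26a4 were 3.21 (SE 0.16) and 3.86 (SE 0.21). For Slc26a4 the C57BL/6J libraries read 211, 159.7 and 161 CPM under normoxia and 219, 197 and 361 CPM under normoxia-hyperoxia. The DBA/2J libraries read 72.1, 86.6 and 100.3 CPM, then 139, 149 and 217 CPM.

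Slc4a9 was higher by 2.18 (SE 0.20) and 3.14 (SE 0.23) on the log2 scale. Among pump subunits, Atp6v1c2 was higher by 2.05 (SE 0.10) and 2.75 (SE 0.15), and Atp6v1b1 by 1.56 (SE 0.12) and 2.28 (SE 0.13). Atp6v1g3 was higher by 1.28 (SE 0.16) and 2.12 (SE 0.20), and Atp6v0d2 by 1.09 (SE 0.10) and 1.74 (SE 0.15). The transporters and Foxi1 thus had larger point estimates than the B1, G3 and d2 subunits in both comparisons. Atp6v1g3 shows the levels behind this: C57BL/6J means were 38 ± 6.0 CPM in 24 h controls, 85.7 ± 13 CPM under normoxia and 140 ± 47 CPM under normoxia-hyperoxia (SD, n = 3). DBA/2J means were 30.1 ± 9.9, 53.3 ± 8.8 and 121 ± 23 CPM. For Atp6v0d2 the C57BL/6J means were 33.2 ± 2.6, 70.7 ± 2.8 and 93.5 ± 23 CPM, against 24.9 ± 4.5, 36.5 ± 7.7 and 77.3 ± 21 CPM in DBA/2J. For Atp6v1c2 they were 9.03 ± 1.6, 44.9 ± 3.9 and 64.3 ± 18 CPM, against 12 ± 2.0, 28.4 ± 3.4 and 60.2 ± 9.7 CPM. Each oxygen group stood above its 24 h controls for all of these.

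**Figure D2:**
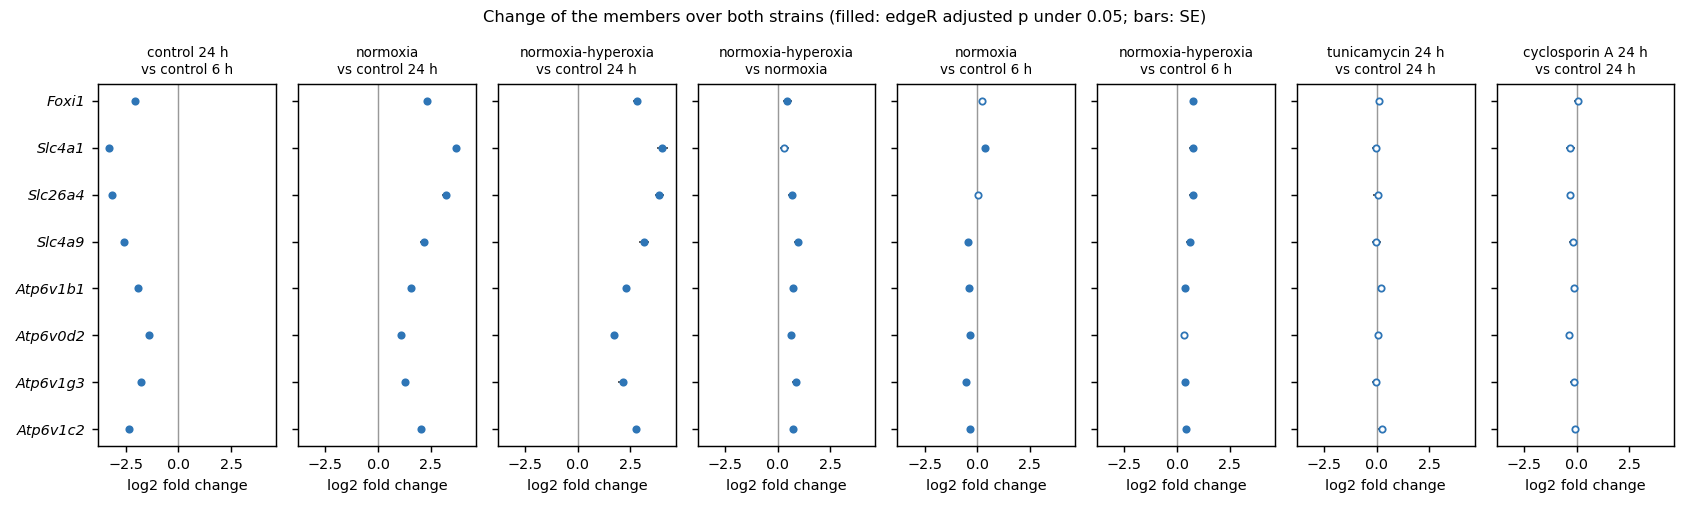
Log2 fold change over both strains for the 8 members in 8 comparisons, with bars for the standard error (often about the size of the point) and filled points where the edgeR adjusted p was under 0.05. All 8 points lie left of 0 for 24 h against 6 h controls and right of 0 for both oxygen groups against 24 h controls, and none is filled for the drugs at 24 h.

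Because CPM is a share of each library, the proximal tubule, which supplies much of kidney RNA, is given beside these results. The 8 proximal tubule markers (Slc34a1, Lrp2, Cubn, Slc5a2, Slc5a12, Slc22a6, Kap and Acsm2) summed to 1337 to 1845 CPM in C57BL/6J 24 h controls, 26330 to 33116 CPM under normoxia and 634 to 850 CPM under normoxia-hyperoxia. In DBA/2J the ranges were 3450 to 6398, 42951 to 45980 and 1886 to 2681 CPM. All 8 fell from 6 h to 24 h in controls (median log2 fold change -2.66) and all 8 were higher under normoxia than in 24 h controls (3.67). Under normoxia-hyperoxia 7 of 8 were lower than in 24 h controls (-1.07) and all 8 were lower than under normoxia (-4.61). None of these markers was at 0 in any group, so the kidney label is met by its main tubule cell. Of 4 podocyte markers, 4 were lower at 24 h than at 6 h, 3 were lower under normoxia than in 24 h controls and 4 were higher under normoxia-hyperoxia than in 24 h controls. Of 5 endothelial markers, 1 was higher and 3 were lower with time, 1 higher and 2 lower under normoxia, and 3 higher and 1 lower under normoxia-hyperoxia, each against the same controls as the members. The mitochondrial share of counts moved too: in C57BL/6J it was 14.8% to 16.3% at 6 h, 5.96% to 7.87% at 24 h, 22.8% to 25.6% under normoxia and 12.2% to 16.6% under normoxia-hyperoxia. In DBA/2J it was 8.05% to 8.32%, 3.39% to 3.6%, 11.8% to 12.8% and 11% to 17.4%. It was thus lower in DBA/2J than in C57BL/6J without overlap in both controls and under normoxia. The part of other cell types and of the mitochondrial share in the members' values was not tested.

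Red cells also make band 3, so red cell markers are given beside Slc4a1. The 9 red cell markers found in the table summed to 106 to 276 CPM in C57BL/6J 6 h controls, 38.8 to 74.1 CPM at 24 h, 100.5 to 164 CPM under normoxia and 152 to 246 CPM under normoxia-hyperoxia. In DBA/2J they summed to 109 to 157, 27 to 52.3, 65.8 to 80.2 and 144 to 224 CPM. The 5 that passed the filter, the globin genes and Alas2, fell with time (0 higher, 5 lower) and were higher in each oxygen group than in 24 h controls (5 higher, 0 lower). Of the red cell membrane genes, Rhag reached at most 1 count and Epb42 at most 10 counts in any library. The part of red cells in Slc4a1 was not tested. Atp6v0d2 is also made by osteoclasts and some macrophages. The 9 markers of those cells summed to 135 to 149 CPM in C57BL/6J at 6 h and 130 to 176 CPM at 24 h, and to 198 to 241 and 222 to 247 CPM in DBA/2J. The 9 markers under normoxia summed to 204 to 212 CPM in C57BL/6J, against 205 to 243 CPM for DBA/2J, and under normoxia-hyperoxia to 153 to 194 and 299 to 372 CPM. Of the 8 that passed the filter 1 was higher and 5 were lower with time, and 5 were higher and 2 lower in each oxygen group against 24 h controls. Their part in Atp6v0d2 was not tested. Of the osteoclast genes in that list, Acp5 reached 2305 counts in a library, Ctsk 638 and Dcstamp 24.

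Against 6 h controls, which had held the higher levels, the oxygen groups differed less and the members did not move as one. Averaged over strains, 1 member was higher under normoxia (Slc4a1) and 5 were lower. Of 16819 genes, 32.9% were called higher and 32.9% lower. Taken alone, C57BL/6J slices had 1 member called higher and 1 called lower, whereas DBA/2J slices had 0 and 5. The strain difference in this response passed for 1 of 8 members. Slc4a1 was higher by 0.39 on the log2 scale over both strains (SE 0.10, edgeR adjusted p = 0.0031), which is the mean of 0.78 in C57BL/6J (SE 0.14) and -0.00 in DBA/2J (SE 0.14, edgeR adjusted p = 1.0). Atp6v1g3 fell by 0.53 (SE 0.09), Slc4a9 by 0.42 (SE 0.12), Atp6v1b1 by 0.40 (SE 0.06), Atp6v0d2 by 0.36 (SE 0.10) and Atp6v1c2 by 0.33 (SE 0.07), with edgeR adjusted p from 7.0e-05 to 0.0069. Foxi1 had a log2 fold change of 0.25 (SE 0.14, edgeR adjusted p = 0.13) and Slc26a4 of 0.03 (SE 0.10, edgeR adjusted p = 0.81). No member had groups without overlap in both strains, against 20.6% of all genes higher and 24% lower. Within DBA/2J, Atp6v1b1, Atp6v0d2, Atp6v1g3 and Atp6v1c2 lay under their 6 h controls without overlap, and 0 members lay above. Within C57BL/6J, Slc4a9 lay under its 6 h controls without overlap, and Slc4a1 and Slc26a4 lay above theirs. The other cell types moved in this comparison too: 6 of 8 proximal tubule markers were higher and 0 lower (median log2 fold change 0.94), 5 of 8 principal cell genes were higher and 3 lower (0.44), and all 4 podocyte (-1.24) and all 5 endothelial markers (-1.06) were lower, beside -0.34 for the members. Beside Slc4a1, 0 red cell markers were higher and 1 was lower of the 5 tested in this comparison.

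Under normoxia-hyperoxia against 6 h controls 7 members were higher, where 22.4% of 16841 genes were called higher. The median log2 fold change of the members was 0.52, beside -3.70 for the 8 proximal tubule markers, all of them lower, and 0.93 for the 8 principal cell genes, 6 of them higher and 0 lower. Of the podocyte markers 1 of 4 was higher and of the endothelial markers 1 of 5, with 0 lower in either. The part of these changes in the members' share of counts was not tested. The log2 fold changes were 0.76 for Foxi1 (SE 0.17), 0.74 for Slc4a1 (SE 0.18) and 0.74 for Slc26a4 (SE 0.15). Slc4a9 was higher by 0.60 (SE 0.15), Atp6v1c2 by 0.43 (SE 0.12), Atp6v1b1 by 0.38 (SE 0.08) and Atp6v1g3 by 0.38 (SE 0.14, edgeR adjusted p = 0.047). Atp6v0d2 did not pass, with 0.35 (SE 0.14, edgeR adjusted p = 0.061). The call of Atp6v1g3 was lost in 10 of 18 alternatives, including the fit with a replicate block (adjusted p = 0.081), and that of Atp6v0d2 was gained in 6. Groups did not overlap in both strains for 3 members, Foxi1, Slc26a4 and Slc4a9, against 13% of all genes in this direction.

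Between the oxygen groups, 7 members were higher under normoxia-hyperoxia than under normoxia, where 37% of 17228 genes were called higher. The median log2 fold change was 0.69 for the members. Markers of other cells were higher as well: all 4 podocyte (median 1.39), all 5 endothelial (1.20), 6 of 8 principal cell (0.60) and 4 of 7 loop and distal tubule genes (0.61), with 0 lower in these lists, while all 8 proximal tubule markers were lower. Their part in the members' values was not tested. Slc4a9 was higher by 0.98 on the log2 scale (SE 0.19). Its C57BL/6J libraries read 175, 149.8 and 151 CPM under normoxia against 268, 239 and 420.2 CPM. Its DBA/2J libraries read 67.4, 93.8 and 127 CPM against 177, 182 and 292 CPM. Atp6v1g3 was higher by 0.86 (SE 0.16), Atp6v1b1 by 0.73 (SE 0.08), Atp6v1c2 by 0.71 (SE 0.12), Slc26a4 by 0.67 (SE 0.17) and Atp6v0d2 by 0.66 (SE 0.15). Foxi1 was higher by 0.47 (SE 0.19, edgeR adjusted p = 0.047), a call lost in 9 of 18 alternatives, each of them a fit with 1 library left out. Slc4a1 had 0.31 (SE 0.22, edgeR adjusted p = 0.22). Only Slc4a9 had groups without overlap in both strains, against 28.4% of all genes, with 7 members so in DBA/2J (41.2% of all genes) and 1 in C57BL/6J (33.5%). The normoxia-hyperoxia libraries of C57BL/6J were spread: replicate 2 was the lowest for 8 of 8 members and replicate 3 the highest for 7. In DBA/2J replicate 3 was the highest for 8 of 8 in both oxygen groups, for 5 in 6 h controls and for 7 in 24 h controls. With tunicamycin it was the highest for 6 at 6 h and 6 at 24 h, and with cyclosporin A for 3 and 4.

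DBA/2J slices tended to hold less of these transcripts. The DBA/2J mean was under the C57BL/6J mean in 8 of 8 conditions for Foxi1, Slc4a1, Slc26a4, Slc4a9, Atp6v0d2 and Atp6v1g3, in 5 for Atp6v1b1 and in 4 for Atp6v1c2. Every DBA/2J library lay under every C57BL/6J library in 6 conditions for Foxi1 and Atp6v0d2, in 5 for Slc26a4 and Slc4a9, in 4 for Slc4a1, in 3 for Atp6v1b1 and Atp6v1g3 and in 2 for Atp6v1c2. By condition this held for 7 of 8 members in 6 h controls (11.5% of all genes tested), 3 in 24 h controls (13.8%), 8 under normoxia (27.5%) and 0 under normoxia-hyperoxia (11.3%). With tunicamycin it held for 7 at 6 h (12.9%) and 4 at 24 h (13.4%), and with cyclosporin A for 3 at 6 h (13.2%) and 2 at 24 h (11.5%). Atp6v1c2 showed the opposite order, without overlap, in 24 h controls, as did 27.1% of all genes. Markers of other cells differed between the strains too. In 6 h controls 5 of 5 endothelial (median log2 ratio of DBA/2J to C57BL/6J -0.68), 3 of 4 podocyte (-0.58), 2 of 8 principal cell (-0.28) and 1 of 7 loop and distal tubule genes (-0.43) were lower in DBA/2J, and 4 of 8 proximal tubule markers were higher (0.92), beside -0.48 for the members. In 24 h controls 3 of 5 endothelial (-0.77), 3 of 4 podocyte (-0.68) and 1 of 8 principal cell genes (-0.20) were lower, while 8 of 8 proximal tubule (1.55) and 2 of 7 loop and distal tubule genes (0.04) were higher, beside -0.41 for the members. Under normoxia 7 of 8 principal cell (-0.78), 6 of 7 loop and distal tubule (-0.86), 3 of 4 podocyte (-0.76) and 3 of 5 endothelial genes (-0.64) were lower and 7 of 8 proximal tubule markers higher (1.45), beside -0.78 for the members. Under normoxia-hyperoxia 4 of 8 principal cell genes (-0.46) were lower, 0 podocyte, endothelial or loop and distal tubule genes were called, and 8 of 8 proximal tubule markers were higher (2.16), beside -0.37 for the members. A lower level in DBA/2J was thus seen in other cell types as well, and the part of slice composition in the members' values was not tested. GRCm38 is a C57BL/6J assembly, and any effect of that on DBA/2J counts was not tested.

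In 6 h controls 6 members were lower in DBA/2J, where 12.7% of 16962 genes were called lower and 13.6% higher. Foxi1 fell by 0.76 on the log2 scale from C57BL/6J to DBA/2J (SE 0.15, edgeR adjusted p = 0.0022) and Slc26a4 by 0.76 (SE 0.18, edgeR adjusted p = 0.0088). Slc4a9 was lower by a log2 value of -0.69 (SE 0.22), Slc4a1 by -0.48 (SE 0.17), Atp6v0d2 by -0.48 (SE 0.13) and Atp6v1c2 by -0.38 (SE 0.13). With library totals in place of TMM factors 2 members were called, and with any single 6 h control library left out 2 or 3. Of 17 alternatives the call of Slc4a1 was lost in 11, that of Atp6v1c2 in 9, that of Slc4a9 in 7 and that of Atp6v0d2 in 4, while Atp6v1b1 gained a call in 6. In 24 h controls 3 members were lower in DBA/2J, where 8.27% of genes were: Foxi1 at -0.97 (SE 0.17), Slc26a4 at -0.68 (SE 0.20) and Atp6v0d2 at -0.45 (SE 0.14). Foxi1 and Slc26a4 had DBA/2J means of 52.5% and 64.3% of the C57BL/6J means there. Of 17 alternatives the call of Slc26a4 was lost in 6 and that of Atp6v0d2 in 4. A call was gained by Slc4a9 in 4, by Atp6v1g3 in 2, by Slc4a1 in 1 and by Atp6v1c2, higher in DBA/2J, in 2. Without C57BL/6J replicate 3 or DBA/2J replicate 1 of the 24 h controls 1 member was called, and without DBA/2J replicate 3 it was 5. The count also moved with the group fitted beside the controls. The same 24 h control libraries gave 2 members lower when fitted with tunicamycin (11.2% of genes) and 2 with cyclosporin A (9.46%). They gave 3 with normoxia (11.3%) and 1 with normoxia-hyperoxia (9.43%). The 6 h control libraries gave 7 when fitted with tunicamycin (11.5% of genes), cyclosporin A (9.84%) or normoxia (13.6%) and 4 with normoxia-hyperoxia (11.5%). Atp6v1c2 and Atp6v1b1 had the opposite sign at 24 h, at 0.38 (SE 0.15, edgeR adjusted p = 0.078) and 0.21 (SE 0.16, edgeR adjusted p = 0.4).

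Under normoxia 6 members were lower in DBA/2J, where 18.5% of 17228 genes were called lower. Slc4a1 stood at -1.22 (SE 0.31), Slc26a4 at -0.97 (SE 0.24), Atp6v0d2 at -0.89 (SE 0.21) and Atp6v1b1 at -0.87 (SE 0.11, edgeR adjusted p = 2.5e-05). Atp6v1g3 and Atp6v1c2 followed at -0.62 (SE 0.23) and -0.60 (SE 0.17), while Foxi1 at -0.68 (SE 0.27, edgeR adjusted p = 0.063) and Slc4a9 at -0.66 (SE 0.27, edgeR adjusted p = 0.066) did not pass. These 4 calls depended on the setting: of 17 alternatives that of Atp6v1g3 was lost in 8 and that of Atp6v1c2 in 2, each a fit with 1 library left out, while Foxi1 passed in 6 and Slc4a9 in 5. The count of members was 4 without replicate 1 of normoxia in either strain, and 8 without replicate 3 of normoxia-hyperoxia in either strain, without the filter on low counts and in the fit of all 48 libraries. Under normoxia-hyperoxia 1 member, Slc26a4, was lower, at -0.71 (SE 0.24, edgeR adjusted p = 0.048), where 11.3% of genes were. Its call was lost with library totals and in 9 of 12 fits with a library left out. The count of members rose to 2 in the fit of all 48 libraries, to 4 without C57BL/6J normoxia-hyperoxia replicate 2 or DBA/2J normoxia-hyperoxia replicate 3, and to 7 without the filter on low counts. The other 7 had log2 values from -0.18 to -0.73, all negative. Fitted with 24 h or 6 h controls, the normoxia libraries gave 7 and 8 members lower, where 19.7% and 19.6% of genes were. The normoxia-hyperoxia libraries gave 0 and 1, where 11.5% and 8.63% of genes were.

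**Figure D3:**
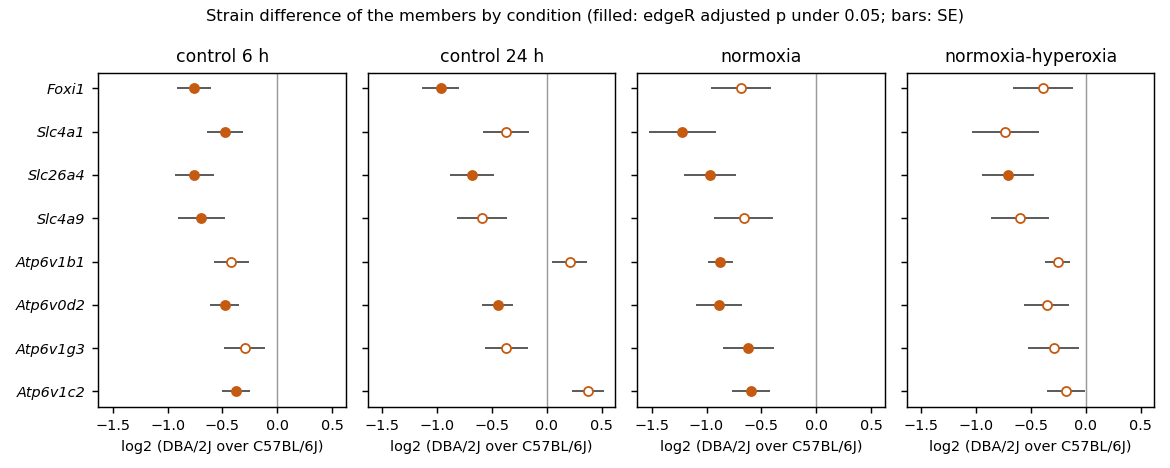
Log2 ratio of DBA/2J to C57BL/6J for each member in 6 h controls, 24 h controls, normoxia and normoxia-hyperoxia, with bars for the standard error and filled points where the edgeR adjusted p was under 0.05. Points lie left of 0 except Atp6v1b1 (0.21) and Atp6v1c2 (0.38) in 24 h controls, and 6, 3, 6 and 1 points are filled.

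For a few members the strain difference in response passed the threshold. Whether these counts exceed the shares of all genes was not tested. Against 24 h controls, Atp6v1b1 was higher under normoxia by 2.10 on the log2 scale in C57BL/6J (SE 0.17) but by 1.03 in DBA/2J (SE 0.17), a difference of -1.07 (SE 0.24, edgeR adjusted p = 0.010). Atp6v1c2 rose by 2.53 (SE 0.14) and 1.57 (SE 0.14), a difference of -0.96 (SE 0.20, edgeR adjusted p = 0.0043). These were 2 of 8 members with a smaller rise in DBA/2J, where 6.88% of genes had an interaction in that direction and 17% in either. Without DBA/2J normoxia replicate 3 the count was 4, and with a replicate block it was 3. The median interaction there was -0.35 for the members, -0.46 for principal cell genes (all 8 negative) and -0.40 for proximal tubule markers. It was 0.01 for podocyte and 0.13 for endothelial markers. From normoxia to normoxia-hyperoxia Atp6v1b1 rose by 0.43 in C57BL/6J (SE 0.11) and by 1.04 in DBA/2J (SE 0.11), a difference of 0.62 (SE 0.16, edgeR adjusted p = 0.016), where 7.2% of genes had an interaction in that direction and 18.2% in either. This was 1 of 8 members, and 2 with a replicate block and 4 without the filter on low counts. Here the median interaction was 0.37 for the members, 0.27 for principal cell genes and 0.69 for proximal tubule markers. For podocyte and endothelial markers it was 0.38 and 0.65, and the part of other cells was not tested. The Atp6v1b1 libraries show the pattern: 289, 257 and 251 CPM in C57BL/6J against 127, 136 and 151 CPM in DBA/2J under normoxia, and 388, 286 and 403 against 320, 311 and 330 CPM under normoxia-hyperoxia. No member had an interaction for normoxia-hyperoxia against 24 h controls (0 of 8, where 1.43% of genes had one, edgeR), and DESeq2 called 0 too, while edgeR without the filter on low counts called 1.

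Tunicamycin and cyclosporin A changed none of the members at the adjusted threshold. At 6 h of tunicamycin 0 of 8 were called (1 at an unadjusted p under 0.05, Slc4a1 with 0.18, SE 0.07), where 0% of 16551 genes were called. At 24 h of tunicamycin 0 of 8 were called (0 unadjusted), where 1.38% of 16905 genes were (0.97% higher and 0.408% lower), and log2 fold changes ran from -0.06 to 0.23. With cyclosporin A 0 of 8 were called at 6 h (0 unadjusted) and 0 of 8 at 24 h (1 unadjusted), where 0% of genes were at either time. Log2 fold changes ran from -0.16 to 0.12 at 6 h and from -0.36 (Atp6v0d2, SE 0.11, edgeR adjusted p = 0.66) to 0.06 at 24 h. Groups did not overlap in both strains for 0 members in any drug comparison. In C57BL/6J alone, Slc4a1 was above its controls without overlap with tunicamycin at 6 h, as were 3.53% of all genes. With cyclosporin A at 6 h, Slc26a4, Slc4a9 and Atp6v1c2 were below their C57BL/6J controls without overlap (5.25% of all genes) and Atp6v1b1 was above its DBA/2J controls (2.86%). At 24 h of cyclosporin A, Atp6v0d2 was below its C57BL/6J controls (4.39%). DESeq2 also called 0 members in each of the 4 drug comparisons, and no interaction with strain was called by edgeR. Standard errors were 0.06 to 0.22. Foxi1 at 24 h read 13.1, 16.3 and 20.6 CPM with tunicamycin and 10.6, 16.5 and 15.8 CPM with cyclosporin A in C57BL/6J. The DBA/2J slices gave 7.72, 8.63 and 8.83 CPM, then 10.7, 6.66 and 11 CPM. These libraries overlapped their 24 h controls. For Slc4a1 tunicamycin gave 5.53, 5.58 and 6.82 CPM in C57BL/6J and cyclosporin A gave 5.34, 4.07 and 6.02 CPM. The DBA/2J values were 6.12, 5.71 and 5.49 CPM, then 5.12, 3.66 and 6.17 CPM. So the low level of 24 h slices was also that of the drug-treated ones.

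The 4 pump members have widely expressed paralogs, so the ratio of counts within a library shows whether the intercalated cell form moved against its paralog. All 4 ratios fell from 6 h to 24 h in control slices: Atp6v1c2 to Atp6v1c1 by 2.78, Atp6v1b1 to Atp6v1b2 by 1.59, Atp6v1g3 to Atp6v1g1 by 1.48 and Atp6v0d2 to Atp6v0d1 by 0.98 on the log2 scale. Each had an exact two-sided permutation p of 0.005, the smallest the 400 arrangements within strains can give, and an adjusted p of 0.0147 over 50 such tests. Atp6v1b1 counts were 0.701 of Atp6v1b2 counts in C57BL/6J at 6 h and 0.204 at 24 h, and 0.566 and 0.220 in DBA/2J. Over 24 h controls, the Atp6v1b1, Atp6v1g3 and Atp6v1c2 ratios were higher under normoxia by 1.55, 1.04 and 3.49 (exact permutation adjusted p = 0.015), and that of Atp6v0d2 by 0.69 (exact permutation adjusted p = 0.063). Under normoxia-hyperoxia all 4 were higher than in 24 h controls, by 1.69 to 3.70, and than in 6 h controls, by 0.71 to 0.99 (exact permutation adjusted p = 0.015 each). Normoxia against 6 h controls gave another picture: the Atp6v1c2 ratio was higher by 0.71 (exact permutation adjusted p = 0.042), while those of Atp6v1b1, Atp6v0d2 and Atp6v1g3 stood at -0.04, -0.29 and -0.44 and did not pass (exact permutation adjusted p = 0.071 to 0.93). From normoxia to normoxia-hyperoxia the Atp6v0d2 and Atp6v1g3 ratios were higher by 1.00 and 1.43 (exact permutation adjusted p = 0.015 each). The Atp6v1b1 ratio at 0.84 and the Atp6v1c2 ratio at 0.21 did not pass there (exact permutation adjusted p = 0.10 and 0.58), and the latter was -0.44 in C57BL/6J and 0.85 in DBA/2J. In the 20 drug ratios the lowest adjusted p was 0.12 (exact permutation).

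**Figure D4:**
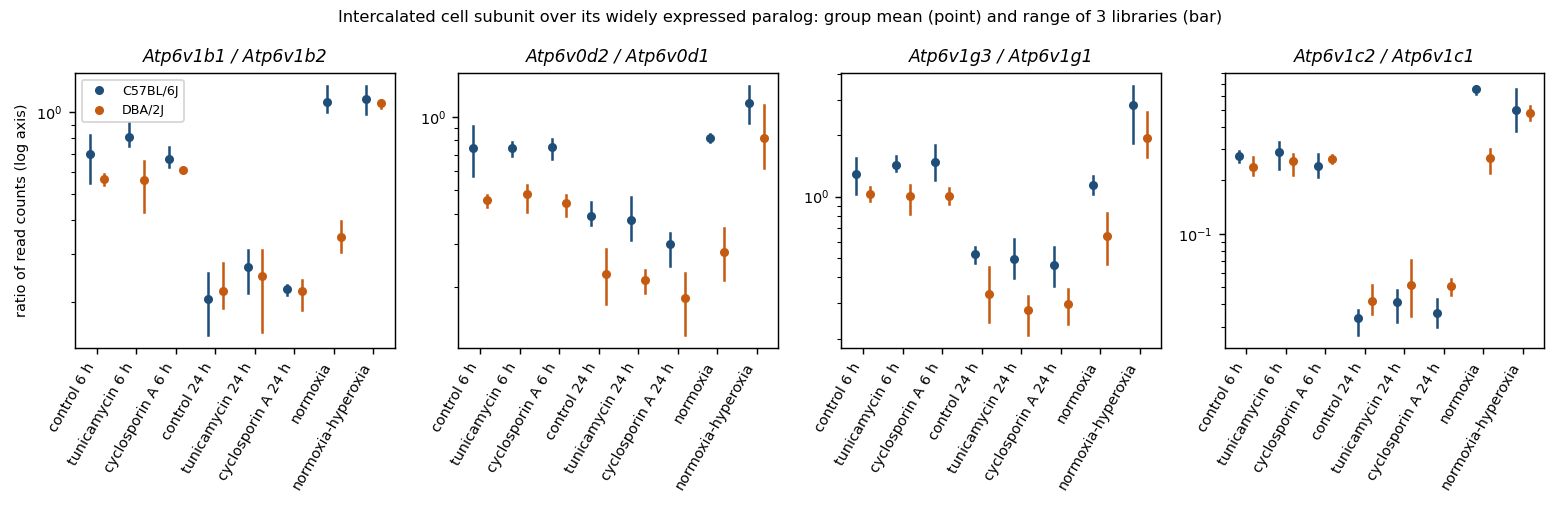
Ratio of read counts (log axis, not corrected for gene length) of each intercalated cell subunit to its widely expressed paralog by condition, for C57BL/6J (blue) and DBA/2J (orange), with the group mean as a point and the range of 3 libraries as a bar. All 4 ratios are low in 24 h controls and drugs, and under normoxia the Atp6v1b1 ratio was 1.09 in C57BL/6J and 0.346 in DBA/2J.

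The ratio of the type A exchanger Slc4a1 to the type B exchanger Slc26a4 passed in none of 10 comparisons. It was 0.48 higher on the log2 scale under normoxia than in 24 h controls (exact permutation p = 0.025, adjusted p = 0.063), and -0.13 with time in culture (exact permutation adjusted p = 0.40). The paralogs had smaller or opposite changes. From 6 h to 24 h Atp6v1b2 fell by 0.35 (SE 0.08), Atp6v0d1 by 0.42 (SE 0.06) and Atp6v1g1 by 0.31 (SE 0.06), while Atp6v1c1 was higher by 0.44 (SE 0.07). Under normoxia against 24 h controls Atp6v1c1 fell by 1.44 (SE 0.06), Atp6v0d1 was higher by 0.40 (SE 0.06), Atp6v1g1 by 0.26 (SE 0.07), and Atp6v1b2 had 0.03 (SE 0.07, edgeR adjusted p = 0.7). Under normoxia-hyperoxia against 24 h controls Atp6v1c1 fell by 0.97 (SE 0.07) and Atp6v1g1 by 0.35 (SE 0.06), with Atp6v0d1 at 0.02 (SE 0.07) and Atp6v1b2 at -0.10 (SE 0.06) not called. Of the 17 widely expressed pump genes listed, 4 were higher and 11 lower with time in culture, with a median log2 fold change of -0.35. Tcirg1, the a3 subunit of osteoclasts, was lower by 2.55 under normoxia than in 24 h controls (log2 value -2.55, SE 0.13).

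Other genes of intercalated cells moved with the members. Of 17 listed, 15 were lower and 1 higher at 24 h than at 6 h, with a median log2 fold change of -2.13. The largest changes were in Hepacam2 at -3.46 (SE 0.10), in the kinase receptor Insrr at -3.42 (SE 0.14), in the oxoglutarate receptor Oxgr1 at -3.32 (SE 0.12), in the homeobox gene Hmx2 at -2.83 (SE 0.25) and in the ammonia transporter Rhbg at -2.47 (SE 0.12). Kit, the receptor of stem cell factor, was the single gene higher, by 1.43 (SE 0.14), and is named because it stands apart. Mast cells also carry Kit, and their 4 markers reached at most 5 counts in any library. The cell source of Kit was not tested. Against 24 h controls 14 of the 17 were higher and 2 lower under normoxia (Kit at -1.08, SE 0.16, and Adgrf5 at -0.46, SE 0.16), and 16 were higher and 1 lower under normoxia-hyperoxia (Kit at -1.39, SE 0.16). Hepacam2 led both, at 3.85 (SE 0.12) and 4.07 (SE 0.19).

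Against normoxia, normoxia-hyperoxia had 8 of the 17 higher and 1 lower. The higher ones included the adhesion receptor Adgrf5 at 1.00 (SE 0.15), the type A transporter Slc26a7 at 0.79 (SE 0.24) and Car15, a carbonic anhydrase, at 0.72 (SE 0.08). The lower one was the transcription factor Tfcp2l1 at -0.24 (SE 0.07). Against 6 h controls normoxia had 5 higher and 4 lower, with Adgrf5 at -0.84 (SE 0.17) and Hmx2 at 0.53 (SE 0.14), and normoxia-hyperoxia had 7 higher and 0 lower, with Hepacam2 at 0.62 (SE 0.15). Beside Adgrf5, the median of the 5 endothelial markers was 1.20 for normoxia-hyperoxia against normoxia. It was -1.06 for normoxia against 6 h controls and 0.03 against 24 h controls, and the part of other cells in Adgrf5 was not tested.

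**Figure D5:**
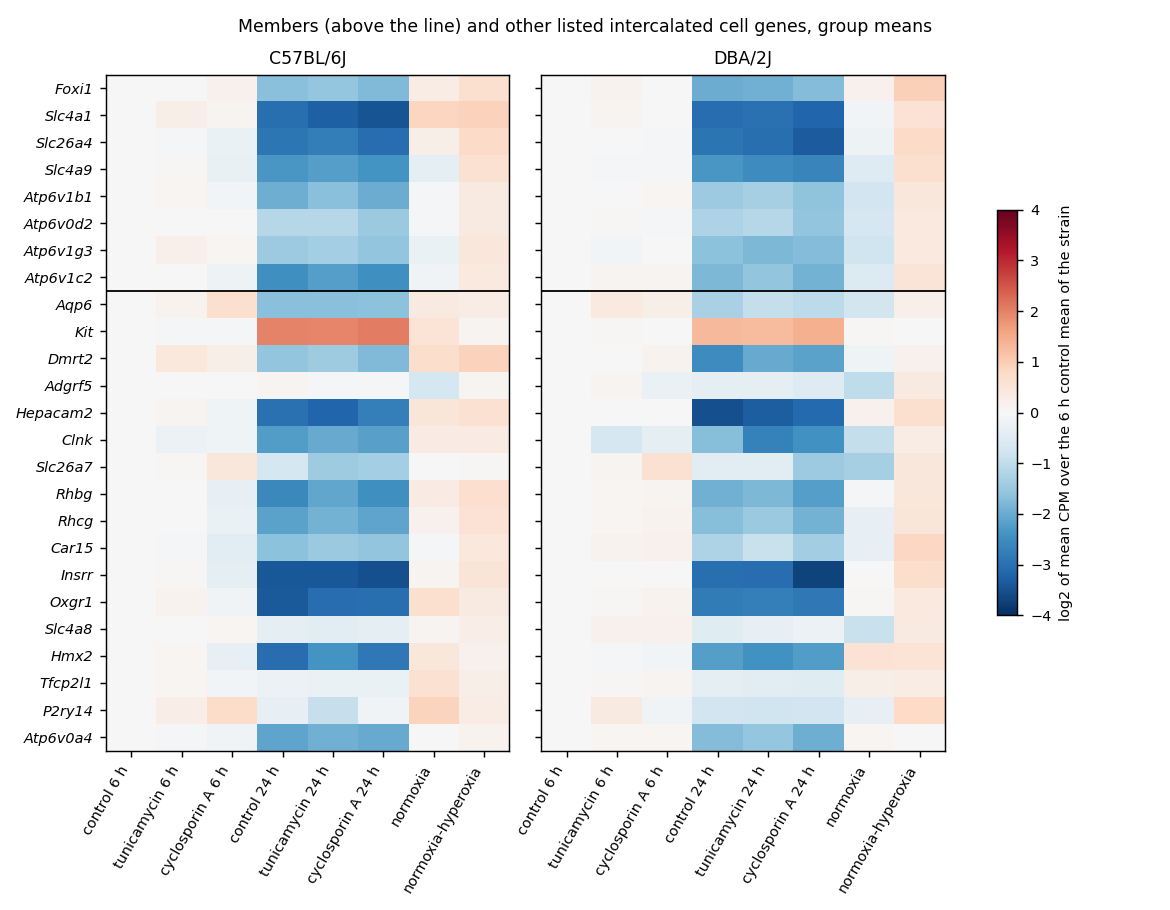
Log2 ratio of the group mean CPM to the 6 h control mean of the same strain, for the 8 members (above the line) and 17 other intercalated cell genes (below), in 8 conditions and 2 strains, with values beyond 4 in size shown at that limit. The columns of 24 h controls and 24 h drugs are blue for all 8 members, and Kit is red there in both strains.

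Principal cells, the neighbours of intercalated cells that reabsorb water and sodium, showed a like course. Of 8 principal cell genes 8 were lower at 24 h than at 6 h, with the cortisol-inactivating enzyme Hsd11b2 at -2.48 (SE 0.18), the water channel Aqp4 at -1.81 (SE 0.40) and Aqp2 at -1.44 (SE 0.22). Over 24 h controls 7 were higher under normoxia, with Aqp4 at 4.58 (SE 0.59), and 8 under normoxia-hyperoxia, with Hsd11b2 at 3.46 (SE 0.20). Their median log2 fold changes in these 3 comparisons were -1.36, 1.59 and 2.08, beside -2.19, 2.12 and 2.77 for the members. The 7 loop and distal tubule genes also fell with time (0 higher, 7 lower) and were higher in both oxygen groups than in 24 h controls (7 of 7 each). The proximal tubule markers shared the fall with time and the rise under normoxia but not the course under normoxia-hyperoxia, where 0 were higher and 7 of 8 lower than in 24 h controls. Whether the members differ from any of these lists was not tested.

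Among 10 further acid-base genes, 9 were lower and 1 higher with time in culture, and carbonic anhydrase Car14 had the largest change at -3.45 (SE 0.27). Under normoxia-hyperoxia against normoxia 4 were higher and 5 lower. The largest of these were Car14 at -4.03 (SE 0.17), the bicarbonate cotransporter Slc4a4 at -3.35 (SE 0.17) and Car4 at -3.28 (SE 0.23), which the proximal tubule also expresses. Notch signalling favours principal over intercalated cell fate. Of 6 Notch-related genes 1 was higher and 4 were lower under normoxia than in 24 h controls, with Notch1 at -1.85 (SE 0.11), Notch2 at -1.06 (SE 0.06) and the target Hey1 at 0.99 (SE 0.22). Against normoxia, normoxia-hyperoxia had 5 of the 6 higher and 0 lower, with Notch1 at 2.63 (SE 0.11), Hes1 at 1.37 (SE 0.09) and Hey1 at 1.06 (SE 0.23). Against 24 h controls, normoxia-hyperoxia had 4 of the 6 higher and 0 lower. With time in culture 3 were higher and 1 lower.

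Within groups, the members tended to rise and fall together from library to library, though not in every pair. Over the 48 libraries, after subtraction of each group mean, Pearson's r between 2 members ran from 0.08 to 0.86 with a median of 0.64 over 28 pairs, and over the 16 group means from 0.92 to 0.99. The lowest over libraries were Atp6v0d2 with Atp6v1b1 (0.08) and with Atp6v1c2 (0.27), while Atp6v0d2 with Foxi1 had 0.73. Libraries share depth and composition, so these are descriptions. Among 13074 genes, the one most like the members' mean deviation over 48 libraries was Oxgr1 (r = 0.899), a gene of type B cells, followed by Malrd1 (0.815), Rcan2 (0.808), Spink8 (0.797), Iqgap2 (0.791), Acss3 (0.775), Plcg2 (0.773), Acot3 (0.768), Syn2 (0.765) and Klk1 (0.755). Over the 16 group means the most alike included Slit2 (r = 0.995) and the ammonia transporter Rhcg (0.994), then Slc9a3r2, Insrr, Tspoap1, Spink8, Capn6, Malrd1 and Adcy6 (0.987). Of the listed intercalated cell genes with a value over libraries, Oxgr1, Insrr, Rhbg, Rhcg and Hmx2 ranked within the first 24. Atp6v0a4, Hepacam2, Aqp6, Dmrt2 and Car15 ranked 54 to 1388, Slc26a7 ranked 2939, Tfcp2l1 3270, Kit 6478, Adgrf5 9728 and Slc4a8 10465.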

How the data were processed

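RNA-seq counts came from kidney slices of 2 strains in 8 conditions with 3 libraries each. The authors deposited 1 table of raw whole-number counts per Ensembl gene, 55487 rows by 48 libraries. Per the labels' protocols, a Qiagen midi kit yielded the RNA and libraries followed an Illumina stranded mRNA ligation protocol. The submitters' processing notes name bcl2fastq 2.20.0, FastQC 0.11.8, STAR 2.7.9a, featureCounts 1.5.1 and GRCm38; their settings, the annotation release and the strand setting are not given in the sources used here. Overlapping or antisense reads near a gene therefore cannot be told apart from its own. Symbols matched 55141 identifiers.

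Each comparison was fitted on its own 12 libraries with edgeR 4.0.16 (TMM factors, filterByExpr, robust quasi-likelihood F test, R 4.3.3), and p-values were adjusted by Benjamini-Hochberg over all genes tested, with a threshold of 0.05. Contrasts were the mean over strains, each strain, the interaction (DBA/2J minus C57BL/6J) and the strain difference within a condition; strain differences in controls came from the time comparison and those under oxygen from the comparison of both oxygen groups. Ratios used log2 of counts plus 0.5 and exact two-sided permutation tests within strains. RPKM used the exon length of GENCODE M21. The edgeR step was tested on simulated data. Alternatives were RLE factors, library totals, no filter, DESeq2 1.42.0, 1 fit of all 48 libraries, a replicate block and leaving out each library. Same-numbered libraries were not taken as paired, since no comparison had every pair correlated above 0.1. This rule is strict: the mean correlation of a comparison ran from 0.01 to 0.18. For tunicamycin at 6 h and for normoxia against 6 h controls 5 of 6 pairs were above 0.1. Pairing is therefore not excluded, and fits with a replicate block are given as an alternative.

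The members and gene lists were chosen with earlier results of these data known. Named were the members and their 4 paralogs in every comparison, up to 5 other intercalated cell genes and up to 3 genes of the widely expressed pump, acid-base, Notch and principal cell lists with the largest change past the threshold, and the 10 genes most like the members. Some items these rules select are not reported here. Genes outside this rule were named because they stood apart or check another cell type. Intervals, where given as SE, cover the spread between libraries.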

Additional observations from a re-analysis of the deposited data

Results flagged for a closer look

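In 4 cases the difference between strains in response passed a test of the difference itself (an edgeR interaction, Benjamini-Hochberg adjusted). For Atp6v1b1 the response to normoxia against 24 h controls differed by -1.07 on the log2 scale, DBA/2J minus C57BL/6J (edgeR adjusted p = 0.010), and over 18 alternatives and the value itself it ran from -1.31 to -0.89. For Atp6v1c2 the same difference was -0.96 (edgeR adjusted p = 0.0043), running from -1.17 to -0.81. For Atp6v1b1 the step from normoxia to normoxia-hyperoxia was 0.62 larger in DBA/2J (edgeR adjusted p = 0.016), running from 0.49 to 0.78. For these 3 values every alternative stayed past the threshold. The normoxia libraries are shared by these differences. Of all genes, 17% had an interaction in either direction for normoxia against 24 h controls, and 18.2% for normoxia-hyperoxia against normoxia.

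For Slc4a1 the response to normoxia against 6 h controls differed by -0.78 (edgeR adjusted p = 0.045), with 0.78 in C57BL/6J and -0.00 in DBA/2J. The interaction in this comparison was examined after the data were seen, 1 of 8 members passed, and 1.81% of genes were called in that direction. Over 18 alternatives the value ran from -1.05 to -0.68, and the call was lost in 11 of them, 10 with a library left out and the fit of all 48 libraries (edgeR adjusted p = 0.14). The ratio of Atp6v1b1 to Atp6v1b2 moved in opposite directions for the same comparison, with 0.65 for C57BL/6J but -0.72 for DBA/2J, and the oxygen and control libraries of each strain did not overlap. The difference of -1.36 was not tested.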

How the results depend on the processing

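The number of members called over both strains stayed within 1.5 times in all 10 comparisons and all alternatives, and with 1 library left out it was 6 to 7 for normoxia-hyperoxia against normoxia, 6 to 7 for normoxia against 6 h controls and 6 to 8 for normoxia-hyperoxia against 6 h controls. Counts that moved further were those of interactions and strain differences, and the cause was not tested. Without the filter on low counts the interaction called 1 member for normoxia-hyperoxia against 24 h controls, 4 for normoxia-hyperoxia against normoxia and 2 for 24 h against 6 h, and the strain difference called 5 in 24 h controls and 7 under normoxia-hyperoxia. DESeq2 gave 1 interaction for 24 h against 6 h. For normoxia against 6 h controls, examined after the data were seen, the interaction called 2 members with RLE factors, library totals or DESeq2, 3 without the filter on low counts, 0 in the fit of all 48 libraries and 0 to 2 with a library left out, beside 1. Library totals gave 2 strain differences in 6 h controls and 0 under normoxia-hyperoxia, and the fit of all 48 libraries gave 2 under normoxia-hyperoxia. With 1 library left out the strain difference called 2 to 7 members in 6 h controls, 1 to 5 in 24 h controls, 4 to 8 under normoxia and 0 to 4 under normoxia-hyperoxia, and the interaction 2 to 4 for normoxia against 24 h controls. Outside the drug comparisons 3 small values changed sign: Slc26a4 for normoxia against 6 h controls was -0.032 without C57BL/6J normoxia replicate 1 and -0.000464 without DBA/2J normoxia replicate 3 (highest 0.124 over these fits), and Atp6v1c2 in the strain difference under normoxia-hyperoxia was 0.00986 without C57BL/6J normoxia-hyperoxia replicate 3 (lowest -0.365).

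With the replicate block the interaction called 2 members for normoxia-hyperoxia against normoxia 3 for normoxia against 24 h controls and 2 for normoxia against 6 h controls, and 6 members were called for normoxia-hyperoxia against 6 h controls; the other counts over both strains and of interactions were as without it. The blocks are nested in strain, so strain differences have no value with them. In the drug comparisons, where no member was called, 14 of 32 values had the other sign in at least 1 of 18 alternatives (5 at most). Correlations of same-numbered libraries ran from -0.14 to 0.37. The numbers were not taken as pairing, which these values do not exclude. TMM scaling of CPM changed group levels by a factor of 0.88 to 1.14, and 27 of 128 levels by more than their SD. The ratios were recomputed with each library left out, an alternative chosen after the data were seen; the single ratio that moved was that of Atp6v1b1 to Atp6v1b2 under cyclosporin A at 6 h, at -0.05 without C57BL/6J 6 h control replicate 2. Depth limits the DBA/2J normoxia-hyperoxia group most, with 5.62 M counts in replicate 2.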
